A study of Mus musculus with 23 samples.

Results

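Ribosome-associated RNA in precipitates aimed at cholinergic spinal cord cells was compared for 10 genes between wild-type and GarsC201R mice. The genes were Cd24a, Lgals1, Nkiras1, Ano3, Mest, Tbc1d4, Phyhip, Itpr3, Polr3g and Ier3. They are 10 of the 38924 gene entries in each deposited table, each found in 1 row by its gene symbol. The genes were chosen because they were lower in the mutant than in the wild-type libraries with Cre, so that difference is given as a description and is not tested.

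The series profiled the spinal cords of mice aged 2 weeks by RiboTag, in which an anti-haemagglutinin antibody pulls down ribosomes that carry a tagged Rpl22 protein, and with them the RNA being translated. Every mouse was Rpl+/- on a B6.CgxB6.129 background, so all of them carried 1 copy of the tag allele. The 4 groups were Chat+/-;C201R+/+ (wild-type Cre, 5 libraries), Chat+/-;C201R+/- (mutant Cre, 6 libraries), Chat+/+;C201R+/+ (wild-type no-Cre, 6 libraries) and Chat+/+;C201R+/- (mutant no-Cre, 6 libraries). In the last 2 groups no Cre switches the tag on, and what the antibody brings down is background. Expected counts totalled 9031654 to 19671869 per library.

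Gars encodes glycyl-tRNA synthetase, the enzyme that loads glycine onto its transfer RNAs, and dominant changes in it cause an inherited neuropathy of peripheral axons. ChAT-Cre acts in cells that make acetylcholine, which in the spinal cord are mainly motor neurons but include other cholinergic neurons. The 10 genes do not belong to 1 pathway. Cd24a encodes a small glycolipid-anchored glycoprotein of the surface of young neurons, and Lgals1 encodes galectin-1, a lectin that binds sugar chains and is known for its part in axon growth. Itpr3 encodes a channel that releases calcium from the endoplasmic reticulum, and Ano3 a membrane protein of the anoctamin family. Nkiras1 encodes a Ras-like protein that holds back NF-kappaB by protecting its inhibitor, and Ier3 a stress-induced protein that affects cell survival. Tbc1d4 (AS160) turns off Rab proteins that carry vesicles to the cell surface. Mest is a paternally expressed imprinted gene for a hydrolase-like protein, Phyhip encodes a partner of phytanoyl-CoA hydroxylase, and Polr3g encodes a subunit of RNA polymerase III, which makes transfer RNAs and 5S ribosomal RNA.

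Reference promoters, from 250 bases before to 50 bases after the RefSeq gene start on GRCm38.p6, were available for 6 of the 10 genes. They are shown for Mest, Polr3g and Ier3, which were lower in the mutant Cre libraries and enriched with Cre, and for Ano3, which was lower in the mutants but not enriched. Capitals mark GGGCGG on either strand, the GC box to which SP1 and related factors bind.
Mest, chr6:30737800-30738099, plus strand: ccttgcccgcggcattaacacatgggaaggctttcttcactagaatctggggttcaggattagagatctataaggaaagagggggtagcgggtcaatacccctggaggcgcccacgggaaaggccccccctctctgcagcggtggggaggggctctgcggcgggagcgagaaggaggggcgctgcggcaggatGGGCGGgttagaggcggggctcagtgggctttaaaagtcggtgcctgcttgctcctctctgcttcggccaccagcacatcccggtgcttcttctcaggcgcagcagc
Polr3g, chr13:81710964-81711263, minus strand: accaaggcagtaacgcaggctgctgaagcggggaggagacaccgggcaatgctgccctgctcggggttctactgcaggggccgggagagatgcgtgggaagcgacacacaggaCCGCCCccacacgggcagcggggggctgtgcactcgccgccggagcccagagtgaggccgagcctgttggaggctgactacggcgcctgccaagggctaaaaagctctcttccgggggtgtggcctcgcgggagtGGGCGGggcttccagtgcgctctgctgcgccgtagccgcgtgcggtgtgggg
Ier3, chr17:35821463-35821762, plus strand: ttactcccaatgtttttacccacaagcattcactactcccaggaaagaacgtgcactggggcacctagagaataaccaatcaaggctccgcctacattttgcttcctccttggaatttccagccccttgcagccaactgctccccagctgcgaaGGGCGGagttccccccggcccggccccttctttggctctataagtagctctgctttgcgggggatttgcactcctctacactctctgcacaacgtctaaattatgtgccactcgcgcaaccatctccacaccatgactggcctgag
Ano3, chr2:110950195-110950494, minus strand: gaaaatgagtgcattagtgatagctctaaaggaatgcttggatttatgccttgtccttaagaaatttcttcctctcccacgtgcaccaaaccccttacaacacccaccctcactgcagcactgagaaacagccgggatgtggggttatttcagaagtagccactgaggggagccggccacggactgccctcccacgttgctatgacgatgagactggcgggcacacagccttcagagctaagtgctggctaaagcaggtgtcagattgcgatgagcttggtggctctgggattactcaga
GGGCGG was present in the windows of 5 of the 6 genes (Mest, Polr3g, Tbc1d4, Itpr3 and Ier3), and in neither of the 2 windows of Ano3. By window it was present in 7 of 9, but the Mest windows that start at 30737800 and 30737803 overlap and hold the same copy. Of all 32851 reference promoters of this length, 35.7% hold GGGCGG. The windows of the 5 genes were 54.0% to 72.3% G and C, beside a median of 52.7% for all promoters. Those of Ano3 were at 52.0% and 43.7%. GGGCGG consists of G and C only, so windows picked by it lean towards a higher share. The cyclic AMP response element TGACGTCA (1.79% of all promoters) and the AP-1 site TGANTCA (7.81%) were found in 0 of the 9 windows of the 6 genes. The same held for TTGCATCA (0.895%), a motif bound by C/EBP and ATF proteins, and for GGGANTTTC (1.11%), 1 form of the NF-kappaB site. Other forms of the NF-kappaB site were not searched. The E-box CACGTG (7.15%) occurred in Itpr3 and in the Ano3 window shown, and TATAAA (13.6%) in the second Ano3 window. Both strands were searched. A match describes letters in a window, not a bound site.

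Levels are given as CPM, read counts over library size, after TMM scaling, which sets libraries to a common level through the bulk of their genes. Some properties of the libraries moved with the Cre groups. Gm26924, a ribosomal RNA-like gene model, took 41.0% to 78.8% of counts in wild-type Cre, 42.4% to 68.2% in mutant Cre and 15.4% to 34.6% in no-Cre libraries. TMM factors ran from 0.459 to 0.989 in 4 wild-type Cre libraries, reached 2.53 in wild-type Cre replicate 2, and ran from 1.35 to 2.38 in mutant Cre. Chat, which should mark the targeted cells, was 56.1 ± 11.8 CPM (SD, n = 5) in wild-type Cre, 33.7 ± 13.7 (n = 6) in mutant Cre, and 2.25 ± 1.87 and 3.11 ± 2.64 (n = 6 each) in wild-type and mutant no-Cre libraries.

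**Figure D1:**
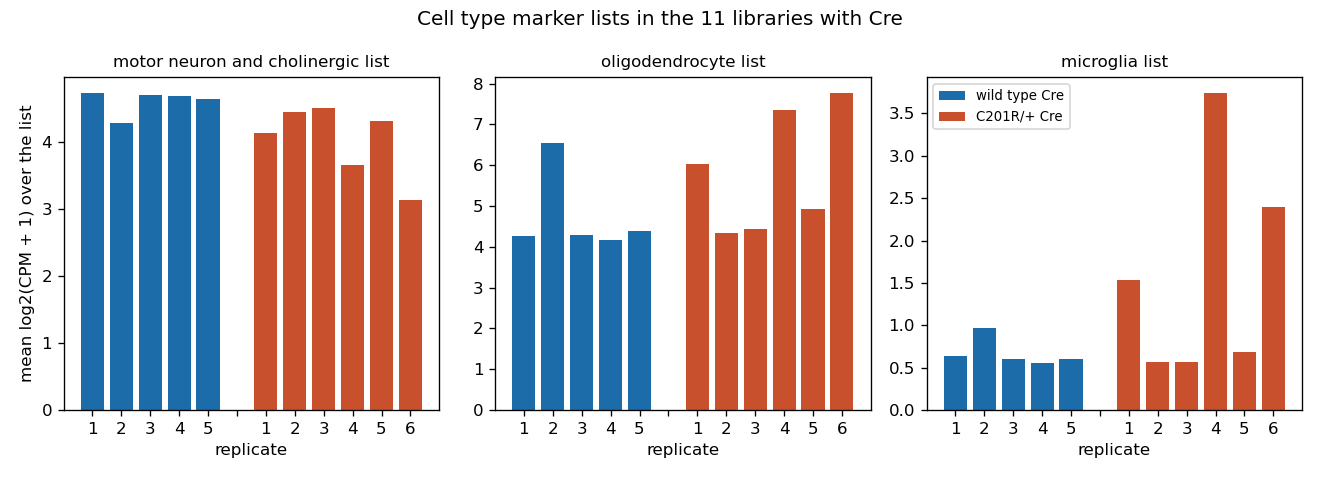
Mean log2(CPM + 1) of the motor neuron and cholinergic, oligodendrocyte and microglia marker lists in each of the 11 libraries with Cre, as bars from 0. Wild-type Cre replicate 2 and mutant Cre replicates 1, 4 and 6 stand above the other libraries in the oligodendrocyte list, and mutant Cre replicates 4 and 6 are the lowest in the motor neuron list.

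The motor neuron and cholinergic markers had a mean log2(CPM + 1) of 4.28 to 4.73 in wild-type Cre and 3.14 to 4.51 in mutant Cre libraries, and 1.00 to 1.40 without Cre. Of the 11 markers measured, 2 had a genotype effect above 0 with Cre, against 54.6% of all genes, and 0 were called. Their median effect was −0.71, beside 0.06 for all genes, and Chat was at −0.75 (SE 0.28). All 10 oligodendrocyte markers and all 5 microglial markers tested were above 0, with medians of 1.61 and 2.39, and 0 were called. Every marker tested in the other glial, vascular, meningeal, ependymal, erythroid and non-motor neuron lists was also above 0, and 0 were called. The medians of those lists ran from 0.50 (ependymal, 1 marker tested) to 1.98 (meningeal fibroblast). The oligodendrocyte markers were at 4.18 to 6.54 in wild-type Cre and 4.34 to 7.77 in mutant Cre, highest in mutant Cre replicates 4 and 6, and the microglial markers at 0.55 to 0.97 and 0.57 to 3.74. None of the 11 motor neuron, 10 oligodendrocyte and 12 microglial markers was at 0 counts in every library of a Cre group. Replicates 4 and 6 of mutant Cre share the title number 18405, which is in no wild-type Cre title. Less RNA per cholinergic cell and fewer such cells in a precipitate cannot be told apart in these bulk libraries. The part of these library differences in the values below was not tested, and the values are repeated further on without those libraries and under other scalings.

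**Figure D2:**
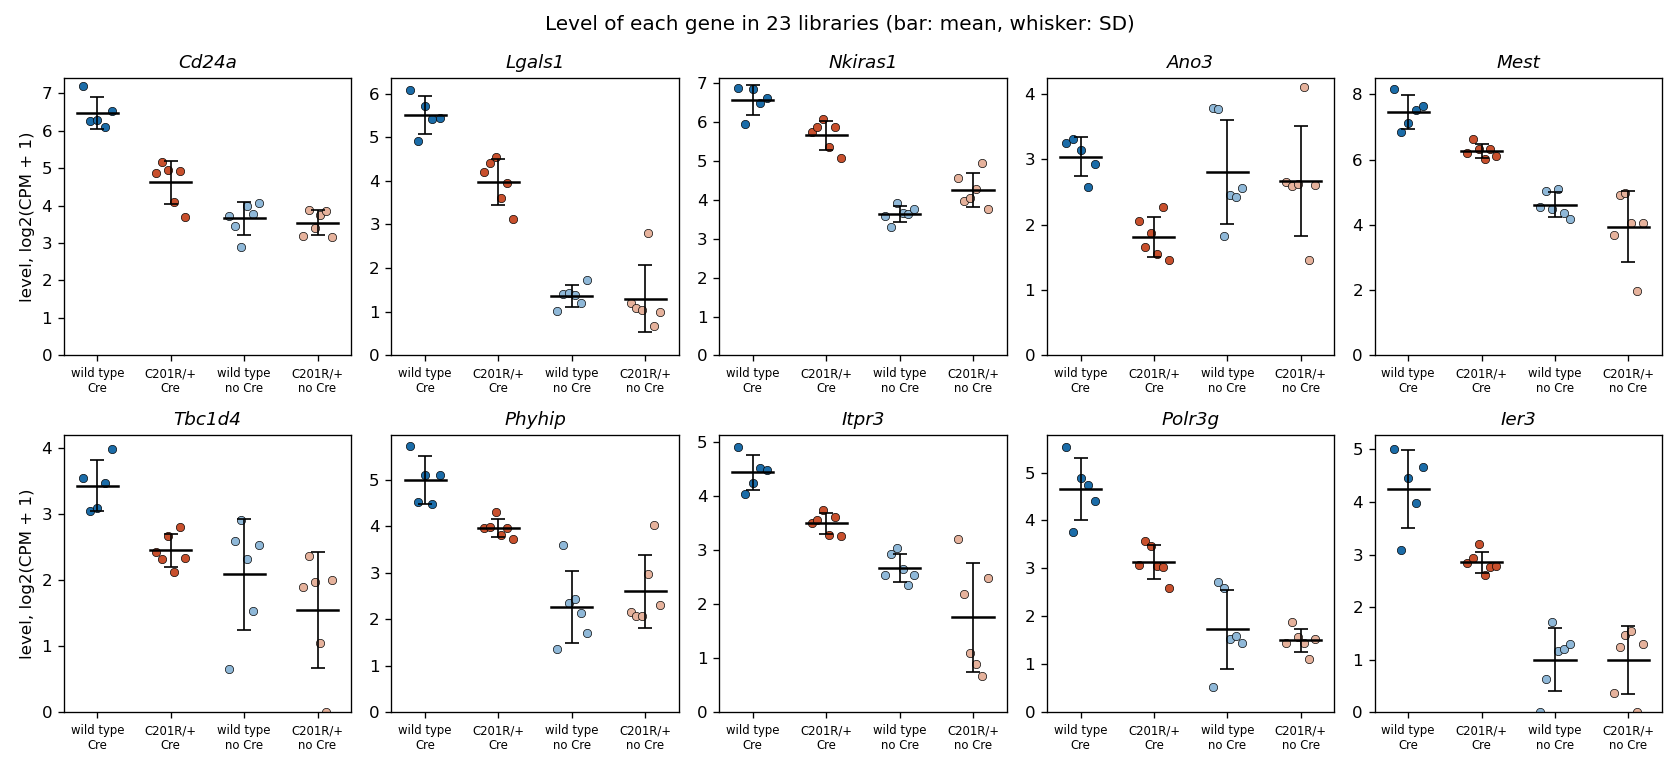
Level of each of the 10 genes, log2(CPM + 1), in the 23 libraries of the 4 groups. Points are libraries, horizontal bars are means and whiskers are SDs. In 8 panels all wild-type Cre points lie above all mutant Cre points, and in every panel except Ano3 all wild-type Cre points lie above all no-Cre points.

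Among the surface and secreted proteins, Cd24a stood at 144, 76.2, 77.1, 67.0 and 91.9 CPM in wild-type Cre replicates 1 to 5. In mutant Cre its lowest, median and highest values were 12, 28.8 and 34.6 CPM. All 5 wild-type values were therefore above all 6 mutant values. Without Cre, Cd24a ranged from 6.38 to 15.9 CPM in wild type and from 7.97 to 13.8 in mutants. The lowest mutant Cre library, replicate 6, fell inside that background. The Cd24a genotype effect with Cre was −1.88 on the log2 scale (SE 0.28), the largest fall among the 10.

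Lgals1 measured 66.2, 29, 51.3, 41.9 and 42.4 CPM in the wild-type Cre libraries. The mutant Cre libraries ran from 7.77 through a median of 15.8 to 22.3 CPM and did not reach the lowest wild-type value. Galectin-1 RNA was nearly absent from the background, at 1.01 to 2.33 CPM in wild type and 0.587 to 6.03 in mutants without Cre. The genotype effect with Cre was −1.59 (SE 0.27).

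Of the 2 calcium and membrane proteins, Itpr3 was at 28.9, 15.4, 17.8, 21.7 and 21.2 CPM in wild-type Cre and between 8.59 and 12.3 (median 10.5) in mutant Cre. The groups did not overlap, and mutant Cre remained above the highest no-Cre library, at 8.17 CPM. Its difference was −1.03 (SE 0.18). Ano3 was low throughout. It measured 8.52, 8.90, 7.85, 4.98 and 6.59 CPM in wild-type Cre and 1.75 to 3.83 (median 2.42) in mutant Cre, a difference of −1.51 (SE 0.24) without overlap. The no-Cre libraries spanned 1.76 to 16.2 CPM and so covered both Cre groups except for mutant Cre replicate 6.

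The NF-kappaB regulator Nkiras1 had 117, 60.4, 115, 89.2 and 97.2 CPM in wild-type Cre, against 32.5 to 66.0 (median 54.8) in mutant Cre. Here the groups overlapped, since mutant Cre replicate 3 was above wild-type Cre replicate 2. The difference was −0.93 (SE 0.22), the smallest of the 10. Ier3 had 31.3, 7.50, 21.0, 14.8 and 24.4 CPM in wild-type Cre and 5.09 to 8.22 (median 6.02) in mutant Cre, with the same 2 libraries overlapping, and a difference of −1.66 (SE 0.29). Background Ier3 did not exceed 2.29 CPM. It had 0 counts in wild-type no-Cre replicate 1 and mutant no-Cre replicate 5, where the limit of 3 counts is 0.435 and 1.76 CPM.

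Tbc1d4, the Rab regulator, was at 10.7, 7.28, 7.52, 10.1 and 14.9 CPM in wild-type Cre and at 3.37 to 5.98 (median 4.24) in mutant Cre. There was no overlap, but the mutant values lay within the no-Cre range, which reached 6.50 CPM and included 0 counts in mutant no-Cre replicate 5 (a limit of 1.76 CPM). The difference was −1.16 (SE 0.23). Counting error matters for this gene, with 54 to 166 counts per wild-type Cre library.

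Mest was the most abundant of the 10, at 288, 113, 138, 184 and 200 CPM in wild-type Cre. The mutant Cre libraries lay between 64.1 and 98.9 (median 75.4) and the background between 2.93 and 33.5 CPM, so the 3 levels were separate. Its genotype effect with Cre was −1.28 (SE 0.23). Phyhip was at 52.3, 22, 33.3, 21.4 and 33.6 CPM in wild-type Cre and at 12.3 to 18.8 (median 14.6) in mutant Cre, a difference of −1.15 (SE 0.23). One mutant no-Cre library, at 15.3 CPM, was as high as the mutant Cre libraries, while the other 11 libraries without Cre did not exceed 11.2. Polr3g was at 45.0, 12.6, 28.6, 25.7 and 20.1 CPM in wild-type Cre and at 5.01 to 10.9 (median 7.38) in mutant Cre, a difference of −1.73 (SE 0.29). Both Phyhip and Polr3g had Cre groups that did not overlap.

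In all, the Cre groups did not overlap for 8 of the 10 genes. Over the 12399 genes tested, 1.19% had every wild-type Cre library above every mutant Cre library. The edgeR quasi-likelihood fit over all genes (Benjamini-Hochberg adjusted p under 0.05) called 9 of the 10 genes lower, against 12 of 12399 genes tested, or 0.0968%. Both shares restate the choice of the genes, and nothing is read from them. The call just inside the threshold was Tbc1d4 (adjusted p = 0.0476). Just outside was Palmd, a gene of the paralemmin family (−1.07, SE 0.22, adjusted p = 0.0566), and Nkiras1 had an adjusted p of 0.0856 (0.00512 by DESeq2). Among the other genes called lower were the sialomucin gene Cd164 (−0.98, SE 0.19) and Ankrd34a (−1.01, SE 0.19).

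The libraries were high or low for many of these genes at once. Wild-type Cre replicate 1 was the highest of its group for 8 of 10 genes (the exceptions were Ano3 and Tbc1d4) and replicate 2 the lowest for 7 of 10. In mutant Cre, replicate 6 was the lowest for 7 and replicate 4 for the other 3. Wild-type Cre replicate 2 also had the highest TMM factor of the 11 libraries with Cre, 2.53, and the highest oligodendrocyte marker level of its group, 6.54. Without it, all 10 genes were called lower and the number of genes called overall rose from 41 to 1057. Without wild-type Cre replicate 1 or replicate 3, 1 of the 10 remained called in each case. The other 8 omissions left 2 to 7 called. Cd24a stayed called in all 11 omissions, with effects of −1.99 to −1.64. The calls in these omissions belong to the contrast that chose the genes and are given as a description.

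The same 2 title numbers occur in both Cre groups, each with 2 wild-type and 2 mutant libraries. Within number 20302 the mutant minus wild-type difference in mean log2(CPM + 1) ran from −1.68 (Ier3) to −0.83 (Itpr3), and the 10 genes showed no overlap. Within number 20401 it ran from −1.79 (Cd24a) to −0.45 (Nkiras1), and 8 genes showed no overlap. Nkiras1 and Ier3 overlapped, through wild-type Cre replicate 2. These libraries were among those that chose the genes, and a gene without overlap in the full groups cannot overlap here. The share of all genes without overlap in 2 against 2 libraries was not computed, and nothing is read from these counts. With the 2 libraries of number 18405 left out, the genotype effects were −1.61 for Cd24a, −1.60 for Polr3g, −1.58 for Ier3, −1.35 for Lgals1 and −1.34 for Ano3, and −0.75 to −1.2 for the other 5. Cd24a, Lgals1 and Ano3 were then still called.

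**Figure D3:**
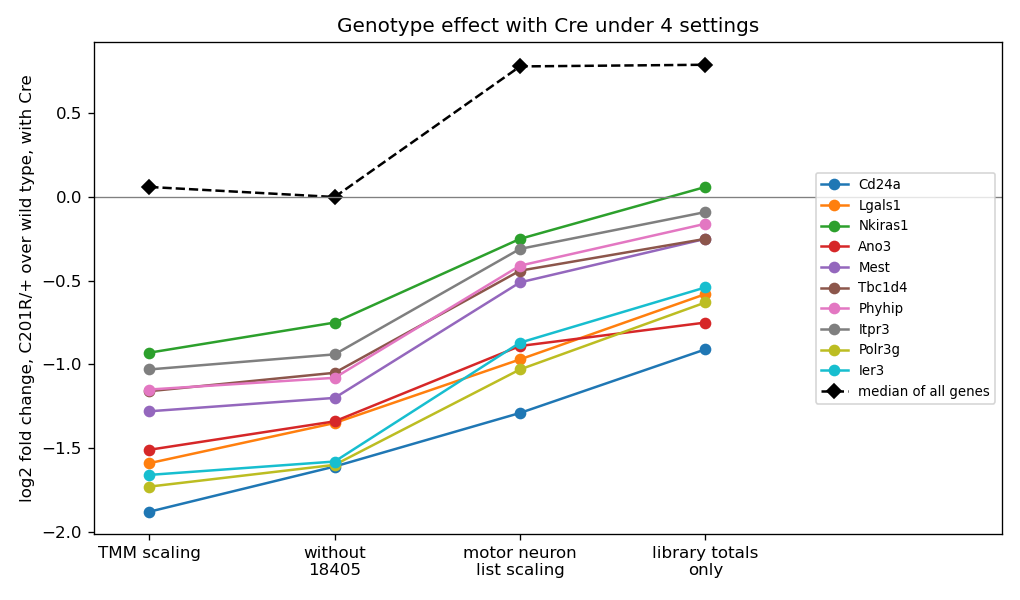
Genotype effect with Cre (log2 fold change, mutant over wild type) of each gene under TMM scaling, without the 2 libraries of title number 18405, with the motor neuron list held level, and with library totals only. The black diamonds give the median of all genes tested, which moves from 0.06 to 0.79 between the first and the last setting. The 10 genes lie below it in each setting, which restates their choice.

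How far the 10 genes fell depended on the scaling. Scaled by library totals alone, the median of all 12399 genes moved from 0.06 to 0.79, and the genotype effects of the 10 ran from −0.91 (Cd24a) to 0.06 (Nkiras1), with 0 of 10 called. Relative to that median they ran from −1.70 to −0.73. A change of scaling moves all genes of a library together, and the 10 genes were chosen for being lower. Their place below the median therefore restates that choice. When libraries were scaled so that the motor neuron and cholinergic list was level, the effects ran from −1.29 (Cd24a) to −0.25 (Nkiras1), and only Cd24a was called (adjusted p = 0.0276, edgeR). Cd24a, Lgals1 and Polr3g also showed no overlap between the Cre groups in their log2 level relative to the mean of that list within each library. For Cd24a this relative level was 1.41 to 2.46 in wild-type and 0.44 to 0.75 in mutant Cre libraries. For Lgals1 it was 0.63 to 1.34 and −0.38 to 0.06, and for Polr3g −0.52 to 0.80 and −1.30 to −0.55. For the other 7 genes the relative levels of the Cre groups overlapped, although their means were lower in the mutants. The share of all genes without overlap on this relative scale was not computed. The same libraries chose the 10 genes, so nothing is read from how many of them did not overlap.

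The libraries without Cre had no part in the choice of the genes, and they give the genotype comparison in the background precipitate. There 0 of the 10 genes was called by edgeR, as was 0% of all 12588 genes tested (0 genes by DESeq2). At an unadjusted p under 0.05, 565 genes (4.49%) passed, and 1 of the 10 was among them. That gene was Nkiras1, which was higher in mutants by 0.68 on the log2 scale (95% interval 0.09 to 1.28, adjusted p = 0.951), at 12.5 to 29.9 CPM against 8.93 to 14.1 in wild type. Cd24a differed by −0.17 (95% interval −0.83 to 0.49), Lgals1 by 0.17 (−1.15 to 1.48) and Mest by −0.44 (−1.23 to 0.35). Ano3 differed by −0.12 (−1.18 to 0.95), Phyhip by 0.33 (−0.82 to 1.47) and Ier3 by 0.06 (−1.52 to 1.64). The lowest values were those of Tbc1d4 at −0.64 (−1.93 to 0.66), Itpr3 at −0.76 (−1.89 to 0.37) and Polr3g at −0.54 (−1.77 to 0.69). Apart from that of Nkiras1, each interval included 0. Whether the genotype effect differed between Cre and no-Cre libraries was not tested for these genes, because their effect with Cre was what chose them.

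**Figure D4:**
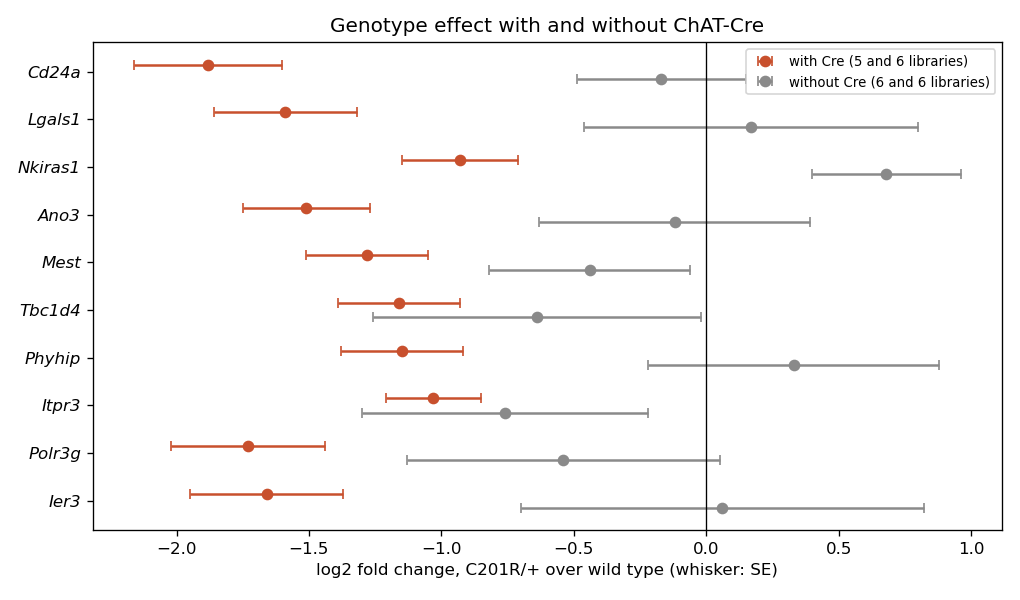
Genotype effect (log2 fold change, mutant over wild type) of the 10 genes in libraries with Cre and without Cre, with SE whiskers. With Cre the values run from −1.88 to −0.93, and without Cre from −0.76 to 0.68, with 6 of 10 below 0.

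Whether the genes are enriched with ChAT-Cre was asked with the mean of the Cre effects in both genotypes. That mean gives both Cre groups the same weight, so it is not itself the difference the genes were chosen on. It uses the same 11 Cre libraries, however, and is not independent of that choice. The counts and adjusted p-values of the 10 genes that follow are therefore given as a description. Of the 10, 9 were higher with Cre (edgeR, adjusted p under 0.05), against 22.1% of 14468 genes tested and 25.6% of the 12399 that were also tested between the Cre groups. None of the 10 was called lower, against 34.7% of all genes. Lgals1 was enriched most, by 3.98 on the log2 scale (95% interval 3.38 to 4.58, adjusted p = 2.4e-11); Chat was at 4.20 (3.54 to 4.86). It was followed by Ier3 at 3.18 (2.45 to 3.91), Polr3g at 2.65 (2.05 to 3.25), Mest at 2.51 (2.02 to 3.00), Nkiras1 at 2.24 (1.89 to 2.60), Phyhip at 2.16 (1.57 to 2.75), Cd24a at 2.06 (1.65 to 2.47) and Itpr3 at 1.79 (1.23 to 2.35). The interval of each gene overlapped that of the next in this order. Tbc1d4 was enriched least, by 1.12 (0.47 to 1.78, adjusted p = 0.00399). For Lgals1, Nkiras1, Mest, Itpr3 and Ier3 all 11 Cre libraries were above all 12 no-Cre libraries, as for 4.17% of genes tested.

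Ano3 was the exception. Its average Cre effect was −0.61 (95% interval −1.22 to 0.01, adjusted p = 0.0851), and the median of all genes was −0.28. In wild type its Cre and no-Cre levels were 7.37 ± 1.60 CPM (SD, n = 5) and 6.94 ± 4.50 (n = 6). In mutants they were 2.58 ± 0.79 and 6.41 ± 4.96 (n = 6 each). The call moved with single libraries, since Ano3 was called lower without wild-type no-Cre replicate 3 (−0.69, adjusted p = 0.045) or mutant no-Cre replicate 5 (−0.69, adjusted p = 0.0417), and with library totals only its effect was 0.33.

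**Figure D5:**
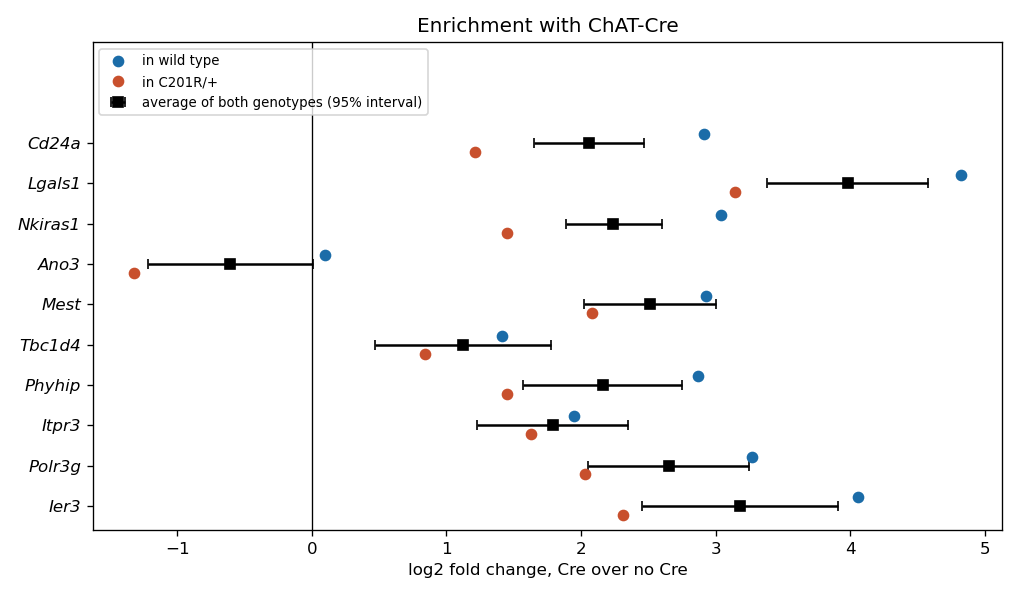
Log2 fold change of Cre over no-Cre libraries for each gene. Squares are the average over both genotypes with 95% intervals, and circles are the effects within wild type (blue) and mutants (orange). Every gene except Ano3 has an interval above 0, and each wild-type effect is above the mutant effect of the same gene.

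Within genotypes, the Cre effects also share libraries with the choice of the genes and are given as values. All 5 wild-type Cre libraries were above all 12 no-Cre libraries for 9 of the 10 genes and for 7.57% of genes tested; the choice used those libraries, and nothing is read from this count. In wild type the log2 Cre effects were 4.82 for Lgals1, 4.06 for Ier3, 3.27 for Polr3g, 3.04 for Nkiras1, 2.93 for Mest, 2.91 for Cd24a, 2.87 for Phyhip, 1.95 for Itpr3, 1.41 for Tbc1d4 and 0.10 for Ano3. In mutants they ran from 3.14 for Lgals1 down to 0.84 for Tbc1d4 and −1.32 for Ano3. Cd24a was at 1.21, Itpr3 at 1.63, Mest at 2.08 and Ier3 at 2.31.

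Per unit of transcript length, by the deposited TPM, Mest led the 10 genes in wild-type Cre with a median of 240 TPM (220 to 275). Nkiras1 (69.6), Lgals1 (63.8) and Cd24a (40.7) came next and overlapped in range. Polr3g (26.4), Ier3 (18.2) and Phyhip (9.23) followed, and Tbc1d4 (2.51), Itpr3 (2.17) and Ano3 (1.78) had the lowest medians. Deposited TPM is scaled to the library total without TMM. On that scale the mutant Cre medians were below the wild-type medians for Mest (153), Lgals1 (60.5), Cd24a (39.9), Ier3 (15.3), Polr3g (14.2), Tbc1d4 (2.34) and Ano3 (1.27). They were above them for Nkiras1 (97.3), Phyhip (12.6) and Itpr3 (2.65). The mean transcript length that the authors' program assigned to Ano3, weighted by its estimate of each transcript's abundance, was 2909 to 3801 bases in wild-type and 3486 to 4718 in mutant Cre libraries. Without Cre it was 6705 bases, the highest value, in all 6 wild-type and 4 of 6 mutant libraries. Ano3 was counted with 3 transcripts. It had 43 to 203 counts per library in wild-type Cre and 28 to 117 in mutant Cre. Without Cre it had 21 to 119 in wild type and 3 to 116 in mutants. At such counts the split between the transcripts is uncertain in all 4 groups.

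Of the 7 nearest paralogs of the 10 genes tested with Cre, 0 were called between the genotypes by edgeR (0.331% of all genes were), and their median was −0.27 beside 0.06 for all genes. Polr3gl, the alternative form of the Polr3g subunit, differed by −0.71 (SE 0.43, adjusted p = 0.395). At an unadjusted p under 0.05 by edgeR were 2 of the 7 paralogs, and 2113 of all 12399 genes tested. The 2 were Nkiras2 (0.59, SE 0.25) and Itpr2 (1.05, SE 0.47), both above 0. Itpr2 was at 18.7 and 26.7 CPM in mutant Cre replicates 4 and 6, and at 4.25 to 9.04 CPM in the other mutant Cre libraries. In the average Cre effect 2 of the 7 paralogs rose (22.1% of all genes did), Tbc1d1 (1.2, SE 0.24) and Phyhipl (0.45, SE 0.13). Another 3 fell (34.7% of all genes did), Itpr2 (−2.50, SE 0.29), Itpr1 (−1.13, SE 0.25) and Polr3gl (−1.12, SE 0.34). Among the inositol trisphosphate receptors, Itpr3 was called higher with Cre and the others lower. Nkiras2 (0.28, SE 0.40) and Ano4 (0.46, SE 0.23) did not pass.

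In the lists of genes that act with them, 0 genes were called between the genotypes with Cre by edgeR (0.331% of all genes were). The list counts here and in the next 2 paragraphs are to be read beside the shares of all genes tested. Of all genes, 54.6% had a genotype effect above 0 with Cre. In the average Cre effect 22.1% of all genes rose and 34.7% fell. In the RNA polymerase III and TFIIIB list, 22 genes were tested, 10 had effects above 0 and the median was −0.08 (0.06 for all genes). The smallest p belonged to Polr2l (−0.67, SE 0.29, adjusted p = 0.276) and Maf1, the repressor of the polymerase (0.67, SE 0.31, adjusted p = 0.291). With Cre against no Cre, 4 of the 22 rose, among them Polr2h (1.45, SE 0.38) and Polr1c (1.35, SE 0.36), and 4 fell, among them Bdp1 (−1.25, SE 0.19) and Tbp (−1.15, SE 0.32). Of 13 genes of the NF-kappaB list, 8 had genotype effects above 0 with Cre (median 0.19), the kinase gene Chuk having the smallest p (0.90, SE 0.27, adjusted p = 0.15). In the average Cre effect 0 of 14 rose and 4 fell: Ikbkb (−1.65, SE 0.26), Chuk (−1.74, SE 0.30), Traf6 (−1.64, SE 0.38) and Ikbkg (−0.99, SE 0.35).

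The list of calcium release from and refill of the endoplasmic reticulum had 19 genes tested between the genotypes with Cre, 11 of them above 0, with a median of 0.03. With Cre 3 of 20 rose, among them the calcium sensor gene Stim2 (1.15, SE 0.21), and 8 fell, among them Plcg1 (−1.44, SE 0.23). Of 17 neuronal surface protein genes, the genotype median with Cre was 0.08, and Thy1 was the lowest by p (−0.87, SE 0.27, adjusted p = 0.161). In the average Cre effect 8 of the 17 rose, among them Thy1 (2.49, SE 0.20) and L1cam (1.57, SE 0.18), and 4 fell, among them Ntm (−1.61, SE 0.18) and Nfasc (−1.41, SE 0.20). Of 21 imprinted genes other than Mest, 12 had genotype effects above 0 with Cre (median 0.16). Ndn (−0.43, SE 0.13, adjusted p = 0.165) and Nnat (1.74, SE 0.55, adjusted p = 0.169) had the smallest p, in opposite directions. With Cre 7 of 22 imprinted genes rose, such as Snrpn (1.99, SE 0.16) and Gnas (1.32, SE 0.16), and 8 fell, such as Meg3 (−3.49, SE 0.28) and Rian (−3.56, SE 0.31).

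In the phytanic acid oxidation list, Phyh, whose product binds Phyhip, differed by 0.58 between the genotypes with Cre (SE 0.15, adjusted p = 0.11) and was higher with Cre (0.98, SE 0.20), as was Phyhipl, while Hacl1 fell (−2.64, SE 0.45). Of 4 galectins tested with Cre against no Cre, 1 rose, Lgals8 (1.63, SE 0.25). Among 5 other anoctamins, Ano10 rose (0.85, SE 0.29). In the list around Tbc1d4, 2 of 10 rose, Tbc1d1 and Rab14 (0.53, SE 0.16), and 3 fell, among them Slc2a4 (−2.29, SE 0.67) and Akt2 (−0.74, SE 0.23). In the family named with Ier3, Ier5 fell (−1.64, SE 0.57). The genotype medians with Cre of these 5 lists were 0.09, 0.50, −0.39, 0.00 and 0.14.

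The genes whose levels ran most like these over the 23 libraries were found by Pearson's r of log2(CPM + 1), which here mostly reflects the gap between Cre and no-Cre libraries. Lgals1 was most like Spp1 (r = 0.983), Tnfrsf12a (0.974) and Actg1 (0.973). Ier3 was most like Tnfrsf12a (0.959) and, among the 10 genes themselves, Lgals1 (0.950). Polr3g had Tubb4b (0.944) among its closest, and Mest had Cd164 (0.944), Nif3l1 (0.942) and Cacna2d3 (0.939). Cd24a followed Rprml (0.924) and Map2 (0.919), Nkiras1 followed Smim18 (0.978) and Sh3bgr (0.974), and Phyhip followed Cltb (0.946) and Slc25a1 (0.941). Itpr3 was closest to Anxa7 (0.915), and Tbc1d4 to Limk1 (0.891). Ano3 had no close match, the best being Gm17535 (0.746).

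By GENCODE M21 (GRCm38), the 10 genes lie on 7 chromosomes, with Nkiras1, Tbc1d4 and Phyhip on chromosome 14 and Itpr3 and Ier3 on chromosome 17. Mest, at chr6:30723547-30748465, is on the chromosome of Gars, 24.3 Mb away. Nkiras1, Ano3, Mest and Itpr3 each overlap a gene on the opposite strand, and the sources used here do not say whether strand was kept in counting, so reads there cannot be assigned with certainty. Nkiras1 shares 256 bases with Rpl15 and 1282 with Ube2e1, whose genotype effects with Cre were −0.08 (SE 0.22) and 0.10 (SE 0.20). Without Cre, Rpl15 was at −1.25 (SE 0.49), where Nkiras1 was at 0.68. Mest shares 912 bases with Copg2 (−0.13, SE 0.16, with Cre). Ano3 contains Muc15, which was too low to be tested, and Itpr3 overlaps the antisense transcript Itpr3os by 1783 bases.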

How the data were processed

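Anti-haemagglutinin precipitates of spinal cord RNA were sequenced in 23 libraries of 4 groups. Per the submitters' processing notes, the authors used Bowtie2 2.2.0 and RSEM 1.2.12. The deposited expected counts are estimated reads per gene, not scaled for depth, and the deposited TPM values are scaled for transcript length and depth. The deposited tables also give other columns, of which the mean transcript length was used. Neither the build nor the annotation is given in the sources used here. By identifier, 37607 of 38924 gene identifiers matched GENCODE M21.

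Expected counts were rounded and fitted with edgeR 4.0.16 in R 4.3.3 by quasi-likelihood tests after TMM scaling. The filterByExpr minimum was 10 counts (15 in total), and p-values were adjusted by Benjamini-Hochberg over all genes, with a threshold of 0.05. The genotype effects used the 2 groups compared, and the Cre effects all 23 libraries. CPM values use TMM scaling over all 23 libraries, with a pseudocount of 1 CPM on the log2 scale. Promoters came from RefSeq on GRCm38.p6, by symbol.

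The 10 genes and the gene lists were chosen with earlier results of these data known. Named beside them are Chat, Gars and Rpl22, 7 paralogs, up to 4 genes per list with the smallest p, up to 3 most similar genes, and genes at the threshold; the neighbouring genes and Gm26924 were added after their values were seen. Gars and Rpl22 carry a point change and a tag that counts do not show. Their genotype effects with Cre were 0.26 (SE 0.22) and 0.18 (SE 0.20), and their average Cre effects 1.81 (SE 0.22) and −0.45 (SE 0.18). Slc18a3 was not analysed here, and some genes that these rules name are not reported here. Replicate numbers follow deposition order, and nothing in the labels ties each library to its own animal: a p-value reflects library-to-library spread. In simulated data, edgeR found 31.8% of genes given a log2 change of 1 and 83.9% of those given 2 in the genotype effect with Cre, 4.76% and 43.2% without Cre, and 26.6% and 75.5% for the average Cre effect. Intervals at 0 counts cover counting error only. The alternatives were library totals only, RLE factors, other filters, DESeq2 1.42.0, all 23 libraries in one fit, a covariate for sex, title number as a block, and each library left out in turn; leaving out title number 18405, leaving out libraries with a TMM factor under 0.5, and scaling to the motor neuron list were added after the data were seen.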

Additional observations from a re-analysis of the deposited data

Results flagged for a closer look

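Of 40 sets of levels examined (10 genes in 4 groups), 1 held a library far from the others. Lgals1 was at 6.03 CPM in mutant no-Cre replicate 4, where the other 5 libraries of the group lay between 0.587 and 1.29 CPM. Its gap to the next library was 0.754 of the range of the group on the log2(CPM + 1) scale. About 1 in 20 such sets is flagged by chance. That library had 28 Lgals1 counts and a TMM factor of 0.321, and without it the Lgals1 genotype effect without Cre changed from 0.17 to −0.64 (adjusted p = 0.999, edgeR).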

How the results depend on the processing

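The 9 calls of enrichment with Cre held under all 23 single-library omissions and under every other alternative fitted to that comparison. The 10 falls with Cre kept their sign in all 11 omissions, which the choice of the genes on the same libraries favours. Their number called ranged from 1 to 10 in the omissions and was 0 with library totals only, 2 with the title number as a replicate block, 1 with all 23 libraries in one fit, 3 without title number 18405 and 1 when scaled to the motor neuron list; Nkiras1 turned to 0.06 with library totals only. Over all genes, the genotype effect with Cre gave 41 calls, 10 to 1057 in the omissions, 17 (17 higher, 0 lower) with library totals only, 413 with DESeq2 (122 higher, 291 lower), 89 without a filter (43 and 46), 25 with the replicate block (23 and 2) and 11 with all 23 libraries in one fit (9 and 2). The title numbers are not said to mark litters or days, so the block does not pair animals. Without Cre, the count of 0 became 31 without a filter (24 higher, 7 lower). The average Cre effect called 4737 genes with library totals only (3390 higher, 1347 lower, against 3195 and 5016), and the count of the 10 genes lower with Cre went from 0 to 1 (Ano3) at 5 CPM, and to 0 to 1 in the omissions. Ano3 had an average Cre effect of 0.33 with library totals only.

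In the genotype effect without Cre, where no gene of the 10 was called under any alternative run, signs were not stable. With library totals only, Lgals1 went to −0.62, Phyhip to −0.32 and Ier3 to −0.16. With the replicate block, Cd24a went to 0.19, Ano3 to 0.00, Phyhip to −0.86 and Ier3 to −0.05. Without the libraries with a TMM factor under 0.5, Lgals1 went to −0.74, Ano3 to 0.13, Mest to 0.09 and Polr3g to 0.22. Single omissions moved Ano3 over −0.60 to 0.16, Ier3 over −0.18 to 0.32 (values of −0.06, −0.10 and −0.01 among them), Lgals1 over −0.64 to 0.31 and Phyhip over −0.15 to 0.82, with Ano3 at 0.14 without wild-type no-Cre replicate 1 and at 0.05 without mutant no-Cre replicate 5. The cause was not tested. At the 5 CPM filter 6 of the 10 genes (Lgals1, Tbc1d4, Phyhip, Itpr3, Polr3g and Ier3) were too low to be fitted there. Low counts limit the background comparison: 7 of the 10 genes had under 10 counts in mutant no-Cre replicate 5, a library of 13574512 counts with a TMM factor of 0.126.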
